A study of Rattus norvegicus with 14 samples.

Results

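The genes described are 8 members of bone morphogenetic protein (BMP) signalling: the response genes Id1, Id2, Id3 and Smad6, the receptors Bmpr1a and Bmpr2, the secreted antagonist Grem1 and the ligand Bmp6. They are 8 of 14217 genes named on the array, and 16 of 31042 tested probe sets carry one of their symbols as the only symbol. A gene with several probe sets is represented by the one with the highest mean over all 14 arrays. Transcripts were measured in thoracic aortas of Sprague-Dawley rats, on 8 A-CRF arrays, from rats with chronic renal failure brought on by adenine, and 6 Control arrays. The labels give no age, sex, adenine dose or duration, and no allele or further agent. Whether the samples came from different rats is not stated, so the tests are set against a spread between samples that may be technical.

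BMP ligands bind paired type I and type II receptor kinases, which phosphorylate the receptor-regulated Smads. These Smads enter the nucleus with Smad4 and switch on early targets, among them the Id genes and the feedback inhibitors Smad6 and Smad7. Id proteins have a helix-loop-helix domain but no DNA-binding region, so they hold E proteins away from DNA. In the arterial wall the pathway is known for its roles in endothelial quiescence, in smooth muscle differentiation and in calcification.

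The samples carried the markers of an aortic wall, and most fat markers were present too. Of 11 fat markers 9 had a Control mean more than 1 log2 unit above the lowest value in the table. Their list means were 6.63 to 8.02 on the A-CRF arrays and 7.29 to 8.25 on Control. Smooth muscle markers were bright, with Myh11 at 11.87 log2 units in Control and 11.58 in A-CRF, whereas 7 T cell markers had list means of 5.59 to 5.73 on all arrays. The GAPDH probe sets for the 3' end exceeded those for the 5' end by 1.58 to 1.90 log2 units on 3 arrays. These were A-CRF 1, A-CRF 4 and Control 1. A large difference is a sign of degraded RNA or incomplete cDNA. On the other 11 arrays this difference was 0.37 to 0.55. The difference between groups in it did not pass an exact permutation test (means of 0.74 ± 0.64 for A-CRF, with SD and n = 8, and of 0.67 ± 0.45 for Control, with SD and n = 6; p = 0.88). Results are given with all arrays, and for the genes that turn on them also without these 3.

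Setting A-CRF against Control asks whether BMP response genes differed in the aorta in renal failure, beside the level of the ligands. Id1 and Id3 had higher means in A-CRF without passing the adjusted test, Id2 had nearly equal means on its brighter probe set, and of the ligands Bmp4 rose. In limma's fit over all tested probe sets 0 of the 8 genes passed an adjusted p of 0.05, against 2.99% of all named genes (1.93% higher and 1.06% lower) and 2.05% of all probe sets. At an unadjusted p under 0.05, 2 of the 8 (Id1 and Id3, both higher) were counted, against 18.6% of all named genes, or 9.74% when only higher ones are counted. Of 14 fits that left out 1 array, Id1 passed in 1 and Id3 passed in 1. Both times the array left out was A-CRF 1, which had the lowest value of each of these genes. The median difference of the 8 genes was 0.07 log2 units, and that of all named genes was -0.0012.

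**Figure D1:**
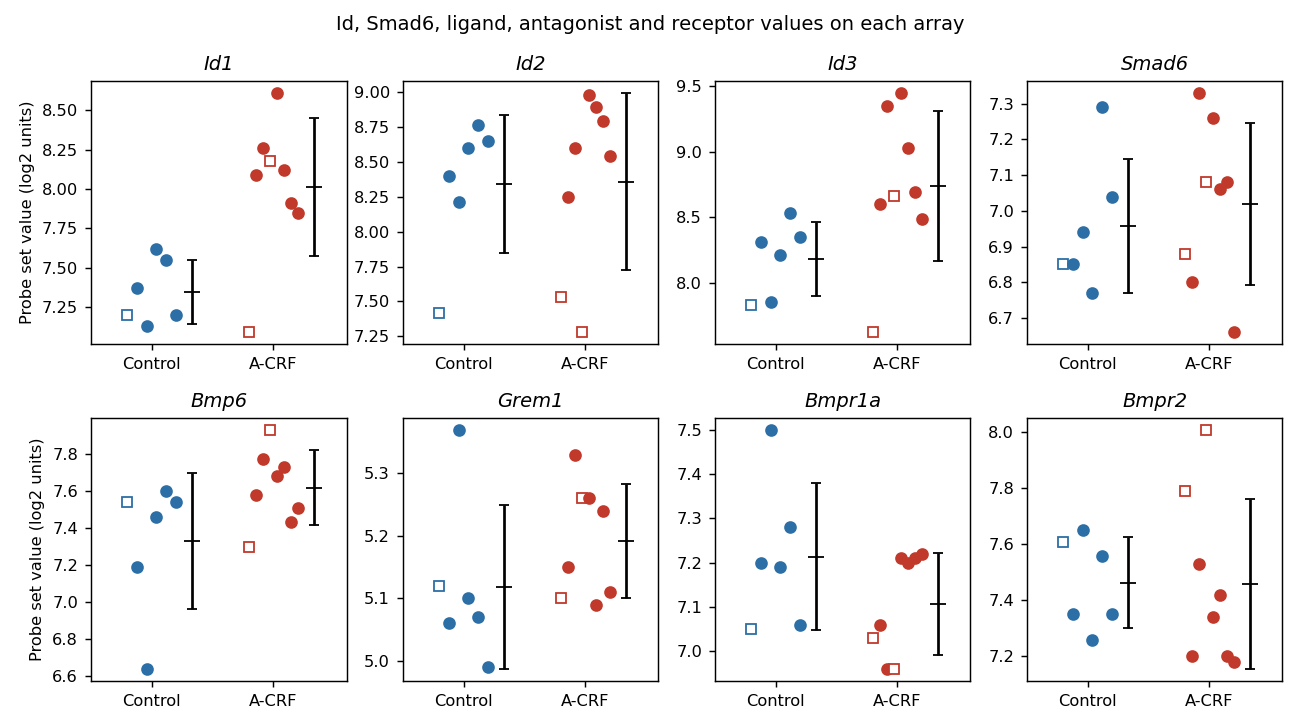
Probe set values in log2 units (vertical axis, not starting at 0) of the 8 genes on each Control (blue, n = 6) and A-CRF (red, n = 8) array. Open squares are the 3 arrays with a high GAPDH difference, and bars are the mean and SD. For Id1, 7 of 8 A-CRF arrays lie above every Control array, and for Id2 the 3 open squares lie below all other arrays.

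The upstream sequences of the Id genes are shown because the results turn on how these 3 response genes compare. RefSeq (GRCr8) sequences matched 3 of 4 response genes searched, and Smad6 is the one without an entry. Each run is the 250 bases before the annotated start, 5' to 3' on the strand of the gene. Capitals mark letters reported for Smad binding, searched on both strands. The first motif was GGCGCC, a palindrome. The second was GGAGCC, found on the other strand as its reverse complement, GGCTCC. The third was GTCT, found there as AGAC. The windows are chr3:161671314-161671563 (+) for Id1, chr5:153656041-153656290 (+) for Id3 and chr6:47470996-47471245 (-) for Id2.
Id1: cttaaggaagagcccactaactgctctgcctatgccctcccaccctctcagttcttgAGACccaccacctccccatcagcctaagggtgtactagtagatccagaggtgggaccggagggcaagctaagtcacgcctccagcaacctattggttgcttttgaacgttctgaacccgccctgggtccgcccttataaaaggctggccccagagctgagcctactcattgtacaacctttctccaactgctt
Id3: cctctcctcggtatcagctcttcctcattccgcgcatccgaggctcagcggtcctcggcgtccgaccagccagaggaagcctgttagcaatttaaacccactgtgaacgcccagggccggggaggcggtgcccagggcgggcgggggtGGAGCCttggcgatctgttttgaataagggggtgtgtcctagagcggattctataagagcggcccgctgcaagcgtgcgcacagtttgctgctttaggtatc
Id2: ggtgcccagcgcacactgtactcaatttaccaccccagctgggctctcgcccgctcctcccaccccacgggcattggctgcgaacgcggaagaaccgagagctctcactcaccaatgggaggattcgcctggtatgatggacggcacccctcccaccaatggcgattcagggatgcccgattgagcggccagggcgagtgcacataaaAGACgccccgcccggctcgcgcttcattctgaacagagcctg
Id1 held 1 match to GTCT, on the other strand, starting 193 bases before the start, and Id2 held 1, also on the other strand, 42 bases before it. Id3 held 1 GGAGCC on its own strand, 102 bases before the start. None of the 3 windows held GGCGCC. Sequence farther upstream was not searched, so these counts say nothing about sites outside the 250 bases. Among 33469 RefSeq windows of this length, 84.0% held GTCT, 23.0% held GGAGCC and 8.69% held GGCGCC on either strand, so a match to GTCT is common.

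Id1 is the Id gene most often used as a readout of BMP receptor activity. Its probe set, 1387028_a_at, read 7.09, 8.09, 8.26, 8.18, 8.61, 8.12, 7.91 and 7.85 log2 units on A-CRF 1 to 8. On Control 1 to 6 it read 7.20, 7.37, 7.13, 7.62, 7.55 and 7.20. All A-CRF arrays but 1 were above the highest Control value, 7.62, and the exception, A-CRF 1, was below the lowest, 7.13. The mean was 8.01 ± 0.44 (SD, n = 8) in A-CRF against 7.34 ± 0.20 in Control (SD, n = 6). The difference was 0.67 ± 0.18 log2 units (SE, 95% confidence interval 0.28 to 1.06), a 1.59-fold higher level, with an adjusted p of 0.074 in limma. An exact two-sided permutation test over samples, not adjusted for the other genes, gave p = 0.0067. In these bulk samples more cells of a type and more RNA per cell cannot be told apart.

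The Id1 call depended on the arrays and settings used. Without A-CRF 1 the difference was 0.80 ± 0.12 log2 units (SE, limma adjusted p = 0.0046), and without all 3 arrays of high GAPDH difference it was 0.77 ± 0.13 (adjusted p = 0.017). In the latter fit 2.89% of all probe sets passed, against 2.05% with all arrays. Id1 there lay between 7.85 and 8.61 on 6 A-CRF arrays and between 7.13 and 7.62 on 5 Control arrays. The groups did not overlap in this smaller set, which lacks A-CRF 1. The share of all genes without overlap in it was not computed. With the GAPDH difference as a covariate on all arrays, Id1 also passed (0.69 ± 0.16, SE, adjusted p = 0.030), as it did with array weights (adjusted p = 0.038) and with dim probe sets left out (0.049). Leaving out any single array other than A-CRF 1 did not let Id1 pass, and the limma adjusted p reached 0.15. Of 14 other alternatives Id1 passed in 5, and the adjusted p reached 0.18 in the rest.

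Id3 encodes a second inhibitor of E proteins. Probe set 1387769_a_at read 7.62, 8.60, 9.35, 8.66, 9.45, 9.03, 8.69 and 8.49 on A-CRF 1 to 8. The Control arrays 1 to 6 read 7.83, 8.31, 7.85, 8.21, 8.53 and 8.35. The groups overlapped: 6 of 8 A-CRF arrays were above the highest Control value, A-CRF 8 was within the Control range and A-CRF 1 was below it. The mean was 8.74 ± 0.57 (SD, n = 8) in A-CRF against 8.18 ± 0.28 in Control (SD, n = 6). The difference of 0.56 ± 0.24 log2 units (SE, 95% interval 0.05 to 1.07) did not pass in limma (adjusted p = 0.29). It passed without A-CRF 1 (0.72, adjusted p = 0.044) but not without all 3 arrays of high GAPDH difference (0.68 ± 0.19, adjusted p = 0.077). Leaving out any other single array did not let Id3 pass, and the limma adjusted p reached 0.47.

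Id2 was measured by a pair of probe sets that did not read alike. The brighter one, 1375532_at, read 7.53, 8.25, 8.60, 7.28, 8.98, 8.89, 8.79 and 8.54 on A-CRF 1 to 8, and 7.42, 8.40, 8.21, 8.60, 8.76 and 8.65 on Control 1 to 6. Its lowest values, 7.28 to 7.53, were those of the 3 arrays with a high GAPDH difference, and the other 11 arrays lay between 8.21 and 8.98. Of all tested probe sets, 3.62% were likewise lower on each of these 3 arrays than on any other. The group difference was 0.02 ± 0.29 log2 units (SE, 95% interval -0.60 to 0.64, limma adjusted p = 0.99), and without the 3 arrays it was 0.15 ± 0.13 (SE, adjusted p = 0.70).

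The other Id2 probe set, 1368870_at, read 7.91 to 7.95 on those 3 arrays and 7.70 to 8.63 on the rest. It ranged from 7.91 to 8.63 in A-CRF (median 8.29) and from 7.70 to 8.36 in Control (median 8.05). Its difference was 0.19 ± 0.13 (SE, 95% interval -0.09 to 0.47, adjusted p = 0.58), and 0.28 ± 0.13 (adjusted p = 0.34) without the 3 arrays. What part RNA or cDNA quality had in the Id2 readings was not tested.

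**Figure D2:**
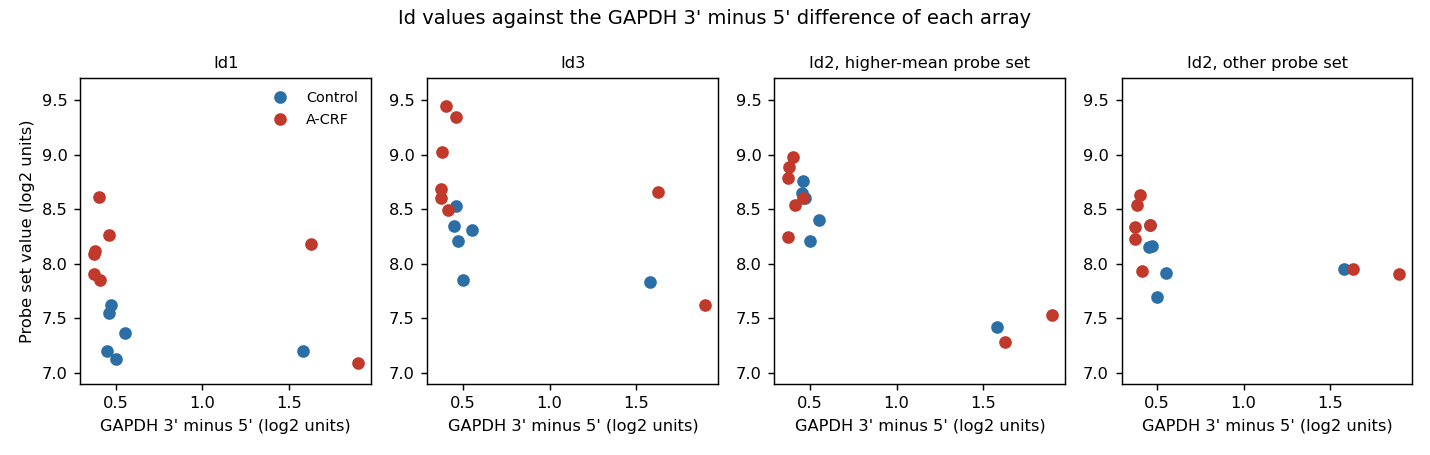
Values in log2 units of Id1, Id3 and the Id2 probe sets (vertical axes, same range) against the 3' minus 5' GAPDH difference of each array (horizontal axis, log2 units), for Control (blue) and A-CRF (red). The 3 arrays at 1.58 to 1.90 carry the lowest readings of the brighter Id2 probe set, 7.28 to 7.53. On these arrays Id1 read 7.09 (A-CRF 1), 8.18 (A-CRF 4) and 7.20 (Control 1).

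Whether the Id genes differed unequally was tested on the difference between them within each array, with exact two-sided permutation tests adjusted over 5 such tests. These tests were added after the values were seen. Id1 minus Id2 (1375532_at) was -0.34 ± 0.56 (SD, n = 8) in A-CRF against -1.0 ± 0.42 in Control (SD, n = 6), a shift of 0.65 log2 units (exact p = 0.024, adjusted p = 0.049). Against the other Id2 probe set the shift of Id1 was 0.47 (exact p = 0.0080, adjusted p = 0.040). Id3 shifted by 0.54 against 1375532_at (exact p = 0.029, adjusted p = 0.049) and by 0.36 against 1368870_at, which did not pass (exact p = 0.059, adjusted p = 0.073). Id1 minus Id3 shifted by 0.11 and did not pass (exact p = 0.36). Without the 3 arrays all 4 shifts against Id2 passed, at 0.41 to 0.62, with adjusted exact permutation p of 0.011 to 0.014. The 462 splits allow no p under 0.0022. These 4 shifts share genes and arrays, so they are not separate results. Adjustment over 5 tests does not cover the choice of these contrasts from the same data.

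Smad6 encodes an inhibitory Smad that BMP signalling induces as feedback. Its brightest probe set, 1394025_at, ranged from 6.66 to 7.33 in A-CRF (median 7.07) and from 6.77 to 7.29 in Control (median 6.89), so the groups overlapped almost wholly. The difference was 0.06 ± 0.11 log2 units (SE, 95% interval -0.17 to 0.29, limma adjusted p = 0.89), and it was 0.02 to 0.13 when 1 array was left out (lowest without A-CRF 3, highest without Control 5). Its 3 other probe sets were dimmer, with means of 5.19 to 5.95 beside a lowest value in the table of 4.82, and differed by -0.02, 0.00 and 0.01. The Smad6 interval thus includes no difference as large as the 0.67 of Id1.

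Bmp6 encodes a secreted ligand. Probe set 1388920_at read 7.30, 7.58, 7.77, 7.93, 7.68, 7.73, 7.43 and 7.51 on A-CRF 1 to 8 and 7.54, 7.19, 6.64, 7.46, 7.60 and 7.54 on Control 1 to 6. Of the A-CRF arrays 4 were above the highest Control value, 7.60, and Control 3 was lowest of all. The means were 7.61 ± 0.20 (SD, n = 8) in A-CRF against 7.33 ± 0.37 in Control (SD, n = 6), a difference of 0.28 ± 0.14 log2 units (SE, 95% interval -0.02 to 0.59) that did not pass (limma adjusted p = 0.39). Without Control 3 it was 0.15 ± 0.10 (adjusted p = 0.64). A second probe set, 1388201_at, differed by 0.17 ± 0.07 (adjusted p = 0.28), and the remaining pair, both dim, by -0.01 and -0.02.

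Bmp4, a ligand of the vessel wall that is not among the 8 genes, rose in A-CRF. Its values were 7.19, 7.19, 7.65, 7.58, 7.31, 7.41, 7.34 and 7.23 on A-CRF 1 to 8, and 6.99, 6.93, 6.97, 6.96, 7.02 and 7.16 on Control 1 to 6. Every A-CRF array was above every Control array, which held for 1.99% of all named genes in either direction. The mean was 7.36 ± 0.17 (SD, n = 8) in A-CRF against 7.0 ± 0.08 in Control (SD, n = 6), a 1.28-fold higher level (0.36 ± 0.07 log2 units, SE, limma adjusted p = 0.023). The call held in 11 of 14 fits that left out 1 array and was lost without Control 2, 4 or 5 (adjusted p of 0.051, 0.053 and 0.050). It was also lost with the clock gene score as a covariate (0.33, adjusted p = 0.066), with the immediate early gene score (0.30, adjusted p = 0.084), and with the clock score when the 3 arrays were left out (0.31, adjusted p = 0.092).

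The other 8 measured ligands did not pass. Bmp2 was at 5.93 ± 0.21 (SD, n = 8) in A-CRF against 5.80 ± 0.29 in Control (SD, n = 6), a difference of 0.14 ± 0.12 (SE). Bmp3 was at 6.08 in both groups, Bmp5 at 5.15 and 5.14, Bmp8a at 5.17 in both and Gdf6 at 5.30 in both, with A-CRF first. Bmp7 was at 5.36 and 5.44 (-0.08 ± 0.03, SE, adjusted p = 0.23) and Inhbb, an activin subunit, at 5.26 and 5.20. All of these except Bmp3 had a Control mean less than 1 log2 unit above the table's minimum of 4.82. For Inhba, the other activin subunit, the representative probe set differed by -0.33 ± 0.12 (SE, adjusted p = 0.19) and a second one by -0.32 ± 0.07 (adjusted p = 0.032).

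**Figure D3:**
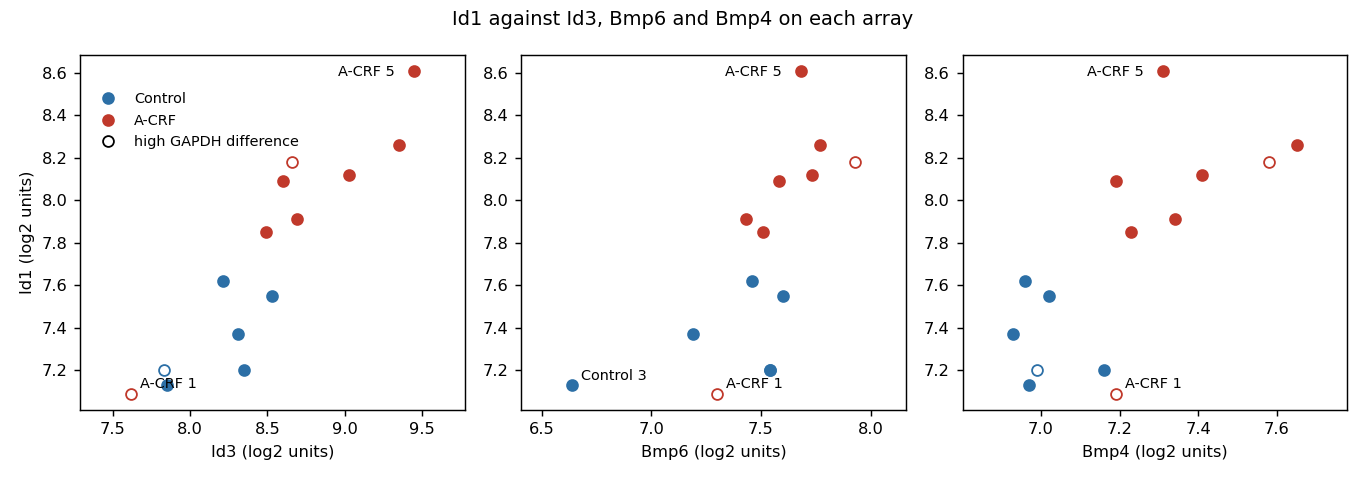
Id1 (vertical axis, log2 units) against Id3, Bmp6 and Bmp4 (horizontal axes, log2 units), 1 point per array, Control in blue and A-CRF in red, with the 3 arrays of high GAPDH difference open. A-CRF 1 has the lowest Id1 value, 7.09, and in the first panel lies below every Control array for both Id1 and Id3. Its Bmp4 value of 7.19 is above all Control arrays.

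Among the 28 pairs of the 8 genes, relations were computed within each group, 56 in all, with exact permutation tests over pairings. Within A-CRF, Id1 and Id3 varied together (Pearson r = 0.94, exact p = 0.00067, adjusted p = 0.038; Spearman rho = 0.88, exact p = 0.0072, adjusted p = 0.20, n = 8). Without A-CRF 1 and A-CRF 5, the samples farthest from the Id1 median, r was 0.72. Within Control the same pair had r = 0.62 (exact p = 0.19, adjusted p = 0.52) and rho = 0.31 (exact p = 0.56, adjusted p = 0.81, n = 6). Id1 and Bmp6 had r = 0.75 in A-CRF (exact p = 0.032, adjusted p = 0.33) and rho = 0.81 (exact p = 0.022, adjusted p = 0.20, n = 8). No pair other than Id1 and Id3 passed after adjustment. The highest Id1, Id2 and Id3 values within A-CRF were all on A-CRF 5.

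Over all 14 arrays, with each group's mean subtracted, the genes most like Id1 among 9301 were Pdia3 (r = 0.90), Id3 (r = 0.90) and Vsig10 (r = 0.85). Pdia3 encodes a disulfide isomerase of the endoplasmic reticulum, and it rose by 0.21 ± 0.04 log2 units (SE, adjusted p = 0.015), as did Vsig10 (0.28 ± 0.05, adjusted p = 0.019). For Id3 they were Id1 (0.90), Socs5 (0.86) and Uggt2 (0.84). For Id2 they were Rps27l (0.97), Usp9x (0.96) and Yipf4 (0.95), and for Smad6 P2ry6 (0.86), Akap8l (0.83) and Fpgs (0.83). These likenesses include A-CRF 1, A-CRF 4 and Control 1, and all probe sets of an array share its RNA, so they are given as a description.

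Grem1 encodes a secreted antagonist that binds BMP ligands. It was dim, from 5.09 to 5.33 in A-CRF (median 5.20) and from 4.99 to 5.37 in Control (median 5.09). The difference was 0.07 ± 0.06 log2 units (SE, 95% interval -0.05 to 0.19, limma adjusted p = 0.64). Without Control 3, the highest array, it was 0.12 ± 0.04 (adjusted p = 0.21).

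Neither receptor passed. Bmpr1a, a type I receptor kinase, ranged from 6.96 to 7.22 in A-CRF (median 7.13) and from 7.05 to 7.50 in Control (median 7.19), a difference of -0.11 ± 0.07 (SE, 95% interval -0.26 to 0.04, adjusted p = 0.57). Without Control 3, the highest array, it was -0.05 ± 0.06 (adjusted p = 0.84). Bmpr2, the type II receptor kinase mutated in heritable pulmonary arterial hypertension, ranged from 7.18 to 8.01 in A-CRF (median 7.38) and from 7.26 to 7.65 in Control (median 7.46). Its highest readings, 8.01 and 7.79, were those of A-CRF 4 and A-CRF 1, arrays of high GAPDH difference. The difference was -0.01 ± 0.13 (SE, 95% interval -0.28 to 0.27, adjusted p = 0.99) on all arrays and -0.12 ± 0.08 (adjusted p = 0.55) without the 3 arrays.

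**Figure D4:**
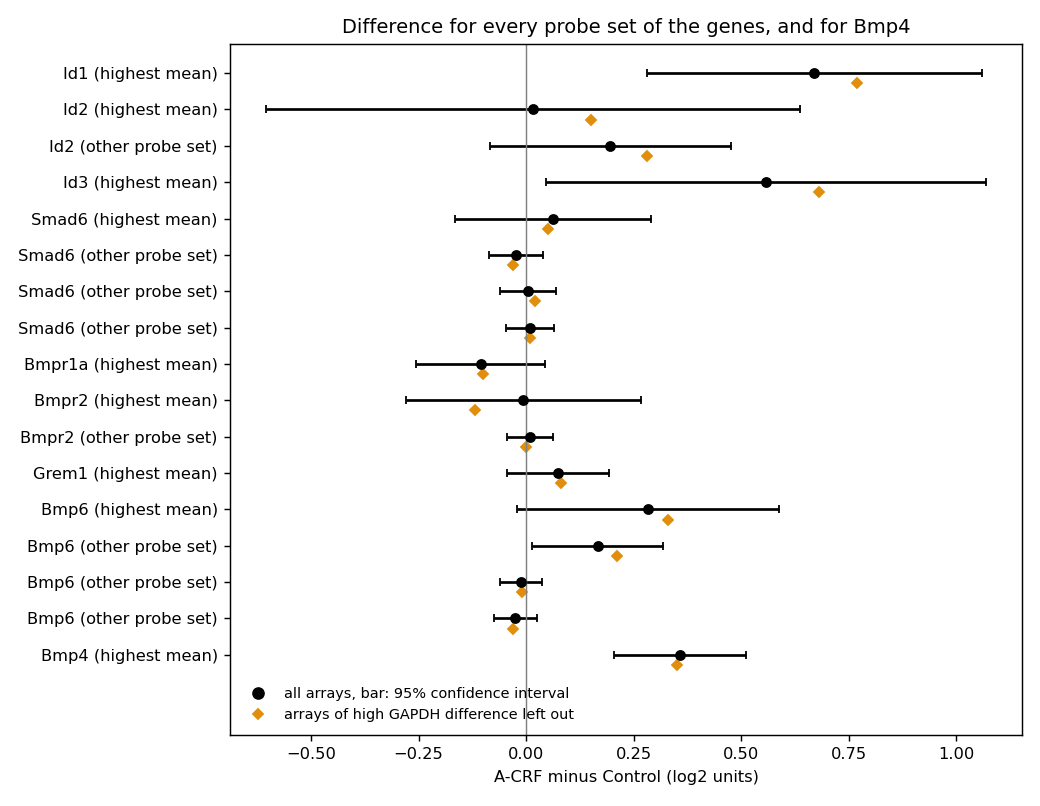
A-CRF minus Control in log2 units (horizontal axis) for each of the 16 probe sets of the 8 genes and for Bmp4. Black points and bars are the difference and its 95% confidence interval over all 14 arrays, and diamonds are the difference without the 3 arrays of high GAPDH difference. The intervals of Id1 (0.28 to 1.06), Id3 (0.05 to 1.07), a Bmp6 probe set (0.01 to 0.32) and Bmp4 (0.20 to 0.51) lie above 0, without adjustment.

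Of 63 other measured genes of the pathway, 3 rose, 0 fell and 60 did not pass. The share that passed, 4.76%, stands beside 2.99% of all named genes. At an unadjusted p under 0.05, 19 of the 63 were counted, a larger share than the 18.6% of all named genes (2647 of 14217). A difference above 0 was found for 38 of the 63, also a larger share than the 48.8% of all named genes (6935 of 14217). The lists by role below share some genes, and they were chosen with earlier results of these data known. Their median difference was 0.03 log2 units.

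The genes that rose were Bmp4 and 2 extracellular modulators. Htra1, a secreted protease reported to act on TGF-beta family ligands, had a mean of 9.42 ± 0.25 (SD, n = 8) in A-CRF against 8.92 ± 0.12 (SD, n = 6) in Control, a difference of 0.50 ± 0.10 (SE, adjusted p = 0.026). Fstl1, a follistatin-like glycoprotein, had a mean of 11.22 ± 0.08 (SD, n = 8) in A-CRF against 11.02 ± 0.10 (SD, n = 6) in Control, a difference of 0.20 ± 0.05 (SE, adjusted p = 0.040). Htra1 kept its call in 9 of 14 fits without 1 array and lost it without A-CRF 5 or Control 1, 4, 5 or 6, where the adjusted p reached 0.062. Fstl1 kept its call in 3 of 14 such fits (A-CRF 2, A-CRF 3 and Control 4 left out in turn), and the adjusted p reached 0.087 in the rest. Of 14 other alternatives Htra1 passed in 11 and was lost with the clock score (adjusted p = 0.072), with the immediate early gene score (0.081), and with the clock score when the 3 arrays were left out (0.092). Fstl1 passed in 6 of 14. It was lost without the 3 arrays (0.18, adjusted p = 0.071), with the clock (0.11), fat (0.080), endothelial (0.052) and immediate early gene (0.073) scores, and with a trended, robust variance (0.11). It was also lost with the mean of its probe sets (0.17) and with the clock score when the 3 arrays were left out (0.15). The other 13 of 15 extracellular modulators did not pass, among them Sost at 0.25 ± 0.10 (SE). Those that passed were 13.3% of this list, beside 2.99% of all named genes. At an unadjusted p under 0.05 there were 8 of the 15, beside 18.6% of all named genes. Of these 8, Crim1 (-0.23) and Chrdl2 (-0.10) were lower and the rest higher.

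Of 13 Smads and intracellular inhibitors none passed in limma, with 2 at an unadjusted p under 0.05, beside 18.6% of all named genes. The inhibitory Smad7 had the largest difference, 0.41 ± 0.15 (SE, adjusted p = 0.18), with 7 of 8 A-CRF arrays above the highest Control array. A-CRF 1 was again the exception, at 6.99, and without the 3 arrays of high GAPDH difference Smad7 passed (0.57 ± 0.13, SE, adjusted p = 0.048). Its other probe sets differed by 0.09 and 0.17 on all arrays. Smad9, a receptor-regulated Smad that is also a target, was at 7.67 ± 0.28 (SD, n = 8) in A-CRF against 7.36 ± 0.48 in Control (SD, n = 6).

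Of 19 measured target genes none passed in limma, with 4 at an unadjusted p under 0.05. For this list and those that follow, the unadjusted share of all named genes was 18.6%. Id4, the remaining Id gene, was at 8.76 ± 0.24 (SD, n = 8) in A-CRF against 8.28 ± 0.48 in Control (SD, n = 6), a difference of 0.48 ± 0.18 (SE, adjusted p = 0.21). Its 3 other probe sets differed by 0.12 to 0.25. None of 8 receptors and co-receptors passed (2 at an unadjusted p under 0.05), with Acvrl1, an endothelial type I receptor, at 0.24 ± 0.08 (adjusted p = 0.16) and its co-receptor Eng at 0.16 ± 0.08 (adjusted p = 0.42). None of the 3 E proteins passed (1 at an unadjusted p under 0.05), with Tcf12 at -0.16 ± 0.07 (adjusted p = 0.28) and Tcf4 at 0.15 ± 0.12 (adjusted p = 0.67).

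**Figure D5:**
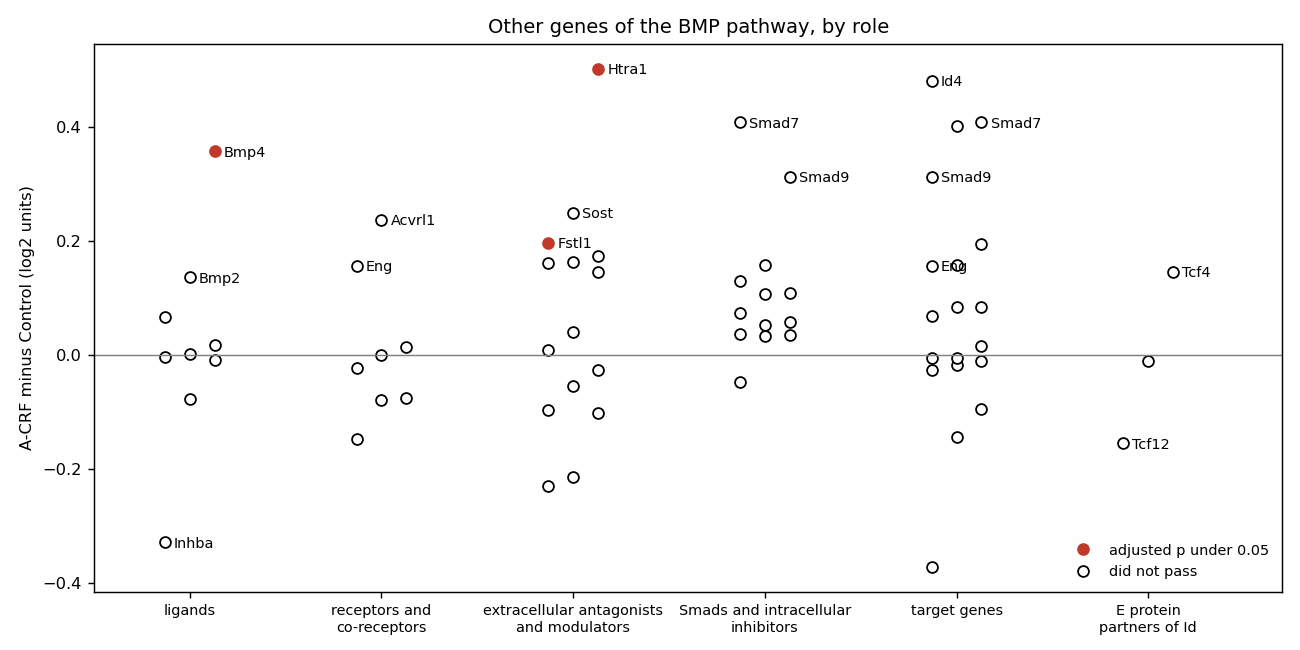
A-CRF minus Control in log2 units (vertical axis) for the other measured pathway genes, grouped by role, with a gene in several lists drawn in each. Filled red points passed an adjusted p of 0.05 in limma. Bmp4, Htra1 and Fstl1 are filled, at 0.36, 0.50 and 0.20.

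Other features of the arrays are given beside the Id values, whether or not they differed between groups. Of all named genes 2.99% passed, and 18.6% were at an unadjusted p under 0.05. Of 12 macrophage markers 8 rose and 0 fell, and their mean level was 7.16 to 7.56 on the A-CRF arrays and 6.79 to 6.97 on Control. Of 10 endothelial markers none passed in limma (1 at an unadjusted p under 0.05), and their mean level was 6.61 to 6.86 in A-CRF and 6.61 to 6.82 in Control. An endothelial score was 0.01 ± 0.58 (SD, n = 8) in A-CRF against -0.01 ± 0.4 in Control (SD, n = 6, exact permutation p = 0.96). With this score as a covariate the Id1 difference was 0.67 ± 0.18 log2 units (SE). A score so even between the groups can hardly move a group difference, so no conclusion is drawn from this fit. Of 9 smooth muscle markers 1, Myh11, fell, 3 were at an unadjusted p under 0.05 and 1 had a difference above 0. Their median difference was -0.23 log2 units, and their mean level was 9.33 to 9.75 in A-CRF and 9.56 to 10.14 in Control. Tagln, a contractile marker, did not pass (-0.26 ± 0.07, SE, adjusted p = 0.059). Each A-CRF array was below each Control array for Tagln, and 1.99% of all named genes likewise had no overlap, in either direction. None of 9 adventitial fibroblast markers passed (3 at an unadjusted p under 0.05). The part of macrophages in the Bmp4 and Id values was not tested.

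The fat markers had a mean level of 6.63 to 8.02 in A-CRF and 7.29 to 8.25 in Control. With the fat score as a covariate Id1 was at 0.58 ± 0.17 log2 units (SE, adjusted p = 0.13). Clock gene scores were -0.38 ± 1.42 (SD, n = 8) in A-CRF against 0.51 ± 0.85 in Control (SD, n = 6, exact permutation p = 0.19). On A-CRF 1 to 8 the clock scores were -1.52, -0.71, -1.3, -1.38, -1.96, 1.02, 1.16 and 1.61. Id1 read 7.09, 8.09, 8.26, 8.18, 8.61, 8.12, 7.91 and 7.85 on the same arrays in that order. Whether Id1 followed the clock score within A-CRF was not tested. With the clock score as a covariate Id1 was at 0.66 ± 0.20 (SE, adjusted p = 0.16), and at 0.66 ± 0.12 (adjusted p = 0.033) when the 3 arrays were also left out. Of 8 clock output genes none passed (2 at an unadjusted p under 0.05, Per2 at -0.85 and Hlf at -0.73). Of 5 clock genes of the opposite phase, which are subtracted in the score, 1 rose, Npas2 (0.78). Cry1, also of these 5, fell (-0.86 ± 0.06, SE, limma adjusted p = 3.3e-05). Its fall raised the A-CRF scores, whereas the falls of Per2 and Hlf lowered them. The test of the score therefore does not show that clock genes were alike in the groups.

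Of 20 immediate early genes, which respond within minutes to handling and to stimuli, 1 rose, Egr1, by 1.58 ± 0.36 log2 units (SE, limma adjusted p = 0.037). At an unadjusted p under 0.05 there were 5 of the 20, beside 18.6% of all named genes. A difference above 0 was found for 14, beside 48.8% of all named genes. Their score was 0.21 ± 0.57 (SD, n = 8) in A-CRF against -0.28 ± 0.54 in Control (SD, n = 6, exact permutation p = 0.12). With the score of these genes as a covariate Id1 was at 0.66 ± 0.21 (SE, adjusted p = 0.18). Of 11 fat markers none passed in limma (0 at an unadjusted p under 0.05), nor did any of 7 T cell markers (0) or 5 chondrocyte markers (2). Of 7 skeletal muscle markers 1 fell, Ckm. What part tissue makeup, time of day or handling had in the Id1 difference was not tested.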

How the data were processed

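The authors deposited 1 value per probe set and array, used here as log2 values. The submitters' processing notes name PLIER, which summarises the probes of a probe set. Whether a background correction, a normalization between arrays or an offset was applied is not stated in the labels. The base of the logarithm was inferred from the range, 4.82 to 12.64, so log2 differences hold only if that base is right. Arrays have no sequencing depth, and their number limits precision. Of 31099 probe sets, 57 manufacturer controls were left out. By the platform annotation, 20826 probe sets had a single symbol, 436 had more than 1 and 9780 were unnamed.

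Group differences were fitted in limma 3.58.1 (R 4.3.3; lmFit, eBayes, group as the only factor, two-sided), with Benjamini-Hochberg adjustment over all 31042 probe sets, and the calculation was tested on simulated data. Scores are mean standardised values over a list. Genes were named by rule: all 8 genes, each measured ligand, every passing pathway gene, the 2 largest differences per list, and the 3 genes most alike to each response gene. The 8 genes and the lists were chosen with earlier results of these data known. Alternatives covered scale, normalization, filtering, variance model, weights, covariates, probe set choice and left-out arrays. The immediate early gene covariate and the clock covariate without 3 arrays were added after the data were seen.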

Additional observations from a re-analysis of the deposited data

Results flagged for a closer look

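Grem1 read 5.37 on Control 3, while the other 5 Control arrays read 4.99 to 5.12. The gap was 0.65 of the whole Control range, beyond the limit for a group of 6. Grem1 was dim on all arrays. This was 1 of 22 groups examined, and chance gives about 1 in 20.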

How the results depend on the processing

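No paired analysis was possible because the labels give the groups no shared replicate numbers. The 636 probe sets past the threshold became 1457 with array weights, 1041 with the GAPDH difference as a covariate, 278 with the clock score, 388 with the fat score, 228 with the immediate early gene score and 315 with 3 arrays left out and the clock score. Leaving out 1 array gave 307 to 979 (979 without A-CRF 1, 307 without Control 5). Of the 8 genes, 0 passed, and 1 (Id1) passed with dim probe sets left out (0.67), array weights (0.68), the GAPDH covariate (0.69), the 3 arrays left out (0.77) and those left out with the clock score (0.66). The unadjusted exact permutation test of Id1 also passed. Without 1 array 0 to 2 passed (Id1 and Id3, without A-CRF 1). Of the other pathway genes 3 passed, then 5 with dim probe sets left out, 6 with array weights, and 0 with the clock score, with the immediate early gene score, or with the 3 arrays left out and the clock score, and 0 to 4 without 1 array.

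Leaving out 1 array moved Id1 from 0.58 to 0.80, Id3 from 0.46 to 0.72, Id2 from -0.17 to 0.17 and Bmpr2 from -0.0851 to 0.0324. Signs also turned for Grem1 (-0.0103, immediate early gene score), Smad6 (-0.0237, 3 arrays left out with the clock score) and Bmpr2 (0.0012, mean of probe sets). The causes were not tested. Grem1 had no value with dim probe sets left out.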

Other observations

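Control 3 stood at the edge of the Control group for several of the genes. It had the lowest Control value of Id1 (7.13) and Bmp6 (6.64), and the highest of Bmpr1a (7.50), Bmpr2 (7.65) and Grem1 (5.37). Outside the 8 genes it was also lowest of the Control arrays for Id4 (7.39, the others 8.12 to 8.67), Smad9 (6.65, the others 6.99 to 7.85) and Smad7 (6.76, the others 7.13 to 7.37). Of the 63 other pathway genes, Control 3 was the lowest Control array for 21 and the highest for 17, and each other Control array was lowest for 6 to 12 and highest for 5 to 14. Its GAPDH difference was 0.50. These genes were picked after their values were seen.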
